A study of Capra hircus with 6 samples.

Results

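Described here are 7 genes of protein folding and stress defence in goat (Capra hircus) fetal fibroblasts, taken by their symbols from the deposited gene table: HSPA5, HYOU1, PDIA6, CALR, HSP90AA1, DDIT4 and SHMT2. They are 7 of 11374 genes in that table, and all 7 passed the low-count filter that left 2148 genes to test. Circular RNAs were taken where the circRNA table names any of the 7 as host gene, which gave 2 of 3503. The treated cells had been kept for 10 weeks in 0.5 µg/mL GO-AgNPs, silver nanoparticles combined with graphene oxide. The control cells had 0 µg/mL and are listed with the same 10 weeks. Both groups are fibroblasts labelled with an age of 50 days, grown in DMEM/F-12 with serum and passaged every 2 to 3 days, with 3 libraries per group. Nothing in the labels ties the libraries to separate cultures, so p-values measure the spread between these libraries, which may be technical.

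Proteins that enter the endoplasmic reticulum (ER) are folded there by resident chaperones and by enzymes that form disulfide bonds. When unfolded protein accumulates, the sensors PERK, IRE1 and ATF6 start the unfolded protein response, which raises transcription of ER chaperones and, through the factor ATF4, of genes for amino acid supply. Fibroblasts secrete large amounts of collagen and so depend on this machinery. HSPA5 (also called BiP or GRP78) is the Hsp70 of the ER, HYOU1 is its large relative and nucleotide exchange partner, PDIA6 is a disulfide isomerase, and CALR (calreticulin) is a calcium-binding lectin that holds newly made glycoproteins. HSP90AA1 is not an ER protein but the stress-inducible Hsp90 of the cytosol. DDIT4 (REDD1) inhibits the growth kinase mTORC1 under stress, and SHMT2 is the mitochondrial enzyme that turns serine into glycine and feeds the folate cycle.

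The libraries were shallow. Gene reads totalled 155452 to 218493 in treated and 203786 to 245958 in control libraries, and the 7 genes together had 291 to 361 reads in treated and 206 to 231 reads in control libraries. A gene without a symbol took 30.5% to 47.5% of the treated reads and 3.51% to 14.5% of the control reads, so values below are CPM on TMM-scaled library sizes (scaled CPM) and changes are relative to that scaling. Fibroblast markers fixed as a list were present, with 18852 to 23133 scaled CPM in treated and 11650 to 13383 in control libraries over 11 of 12 listed genes, led by COL1A1, COL1A2 and FN1. Of the 7 tested, 5 rose and none fell, beside 24.9% higher and 26.7% lower over all tested genes. FN1 (log2 fold change -0.30) and PDGFRA (-0.91) did not pass, and every treated library was below every control for PDGFRA. The epithelial keratins KRT19 and KRT8 had 13, 13 and 24 reads together in treated libraries and 0 in each control library, while the other 3 epithelial markers of the list had no row. Endothelial markers had 0, 0 and 4 reads in treated and 9, 11 and 6 in control libraries, all of CDH5. Blood markers had 0, 8 and 0 reads against 2, 12 and 8, muscle markers 0, 0 and 0 against 2, 1 and 5, and none of 4 neural markers had a row. Their part in the results was not tested, and fewer cells of a type and less RNA per cell cannot be told apart in such samples.

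All 7 genes were higher in treated cells at an adjusted p under 0.05 (edgeR quasi-likelihood test, Benjamini-Hochberg over 2148 genes). The background is high, since 24.9% of all tested genes were called higher and 26.7% lower. The median log2 fold change of the 7 was 1.53, from 0.59 for CALR to 2.57 for DDIT4, against a median of -0.02 over all tested genes, whose quartiles were -1 and 1.03. Leaving out the TMM factor shifts the median of all tested genes by -0.45. The libraries of the groups did not overlap for 6 of the 7, with treated above control, which was so for 27.5% of all tested genes. The exception was SHMT2. Together the 7 genes took 0.179% ± 0.0127 of treated and 0.1003% ± 0.00607 of control gene reads (SD, n = 3 each). With the most counted gene taken out of the totals, the shares were 0.288% ± 0.0269 in treated and 0.110% ± 0.0125 in control libraries.

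**Figure D1:**
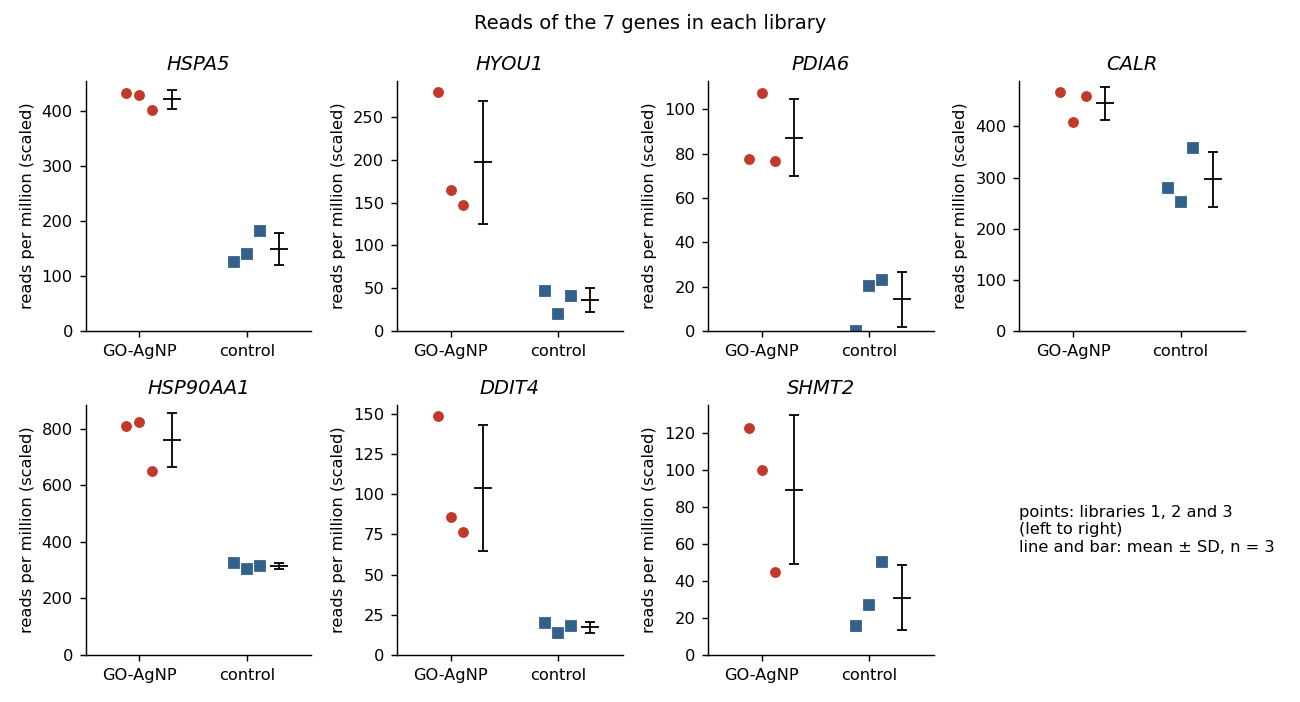
Scaled CPM (y axis, from 0) of each of the 7 genes in the 3 GO-AgNP libraries (circles) and the 3 control libraries (squares), with the mean and SD of each group beside the points. Treated points lie above all control points in every panel except SHMT2, where treated replicate 3 (44.7) lies under control replicate 3 (50.3).

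HSPA5 (ENSCHIG00000025078), the central ER chaperone, had 67, 60 and 63 reads in treated replicates 1 to 3, against 32, 42 and 40 in the controls. That is 434, 429 and 402 scaled CPM in treated and 126, 141 and 183 in control libraries. Every treated library was above every control, and the treated libraries were close to each other, with a coefficient of variation of 4.11%, against 19.6% in the controls. The change was 2.82-fold, a log2 fold change of 1.49 ± 0.25 SE (95% interval of the fold 1.98 to 4.02, edgeR adjusted p = 3.65e-05).

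HYOU1 (ENSCHIG00000017538), which serves HSPA5 by exchanging its nucleotide, changed more but also varied more. It had 279, 165 and 147 scaled CPM in treated libraries, from 43, 23 and 23 reads, and 47.4, 20.1 and 41.2 scaled CPM in control libraries, from 12, 6 and 9 reads. Treated replicate 1 stood above the other two, and no treated library overlapped a control. The log2 fold change was 2.45 ± 0.45 SE, or 5.46-fold (95% interval 2.88 to 10.3, edgeR adjusted p = 0.000103). Whether it changed more than HSPA5 can be read within libraries without any scaling. HYOU1 reads were 0.642, 0.383 and 0.365 of HSPA5 reads in treated and 0.375, 0.143 and 0.225 in control libraries, and these ratios overlapped (exact two-sided permutation test p = 0.2).

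PDIA6 (ENSCHIG00000007838), the disulfide isomerase, was counted least in the controls. It had 12, 15 and 12 reads in treated libraries, against 0, 6 and 5 in the controls, which is 87.2 ± 17.4 and 14.3 ± 12.5 scaled CPM (SD, n = 3 each). Control replicate 1 held no PDIA6 read, and all treated libraries lay above all controls. The log2 fold change was 2.56 ± 0.68 SE (5.88-fold, 95% interval 2.21 to 15.6, edgeR adjusted p = 0.00341).

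CALR (ENSCHIG00000023446), the glycoprotein lectin, had nearly the same number of raw reads in both groups, 72, 57 and 72 in treated and 71, 75 and 78 in control libraries. Only after scaling did the groups part, at 467, 408 and 460 scaled CPM in treated and 280, 252 and 357 in control libraries. The log2 fold change was 0.59 ± 0.22 SE (1.51-fold, edgeR adjusted p = 0.0264). Scaled by the library total alone it was 0.14 (adjusted p = 0.680), so the CALR call depends on the scaling. It was also lost without control replicate 1 (adjusted p = 0.154), control replicate 2 (0.241) or treated replicate 1 (0.0554).

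HSP90AA1 (ENSCHIG00000022121), the cytosolic Hsp90, had the lowest p of the 7 and ranked 132 among 2148 genes by p. Its reads were 125, 115 and 102 in treated and 82, 90 and 69 in control libraries, or 810, 823 and 651 against 324, 302 and 316 scaled CPM. The controls had a coefficient of variation of 3.47% in scaled CPM, and the lowest treated library was above them all. Scaled by the library total alone the controls had 369 ± 32.0 CPM (SD, n = 3), so that small spread depends on the scaling. The log2 fold change was 1.28 ± 0.19 SE (2.42-fold, 95% interval 1.84 to 3.18, edgeR adjusted p = 1.19e-05).

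DDIT4 (ENSCHIG00000011855), the mTORC1 inhibitor, had 23, 12 and 12 reads in treated libraries, against 5, 4 and 4 in the controls. Its scaled CPM were 149, 85.9 and 76.6 in treated and 19.7, 13.4 and 18.3 in control libraries, with no overlap and with treated replicate 1 highest. The log2 fold change was 2.57 ± 0.57 SE (5.95-fold, 95% interval 2.63 to 13.5, edgeR adjusted p = 0.00073).

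SHMT2 (ENSCHIG00000003271), the mitochondrial serine enzyme, had 19, 14 and 7 reads in treated and 4, 8 and 11 in control libraries. The groups overlapped, with 123, 100.2 and 44.7 scaled CPM in treated and 15.8, 26.9 and 50.3 in control libraries. Its log2 fold change of 1.53 ± 0.57 SE (2.90-fold, 95% interval 1.28 to 6.57) passed narrowly (edgeR adjusted p = 0.0286). The call was lost without any 1 of treated replicates 1 and 2 and control replicates 1 and 2 (adjusted p 0.0682 to 0.149). With no scaling factor it was lost as well (log2 1.05, adjusted p = 0.127).

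**Figure D2:**
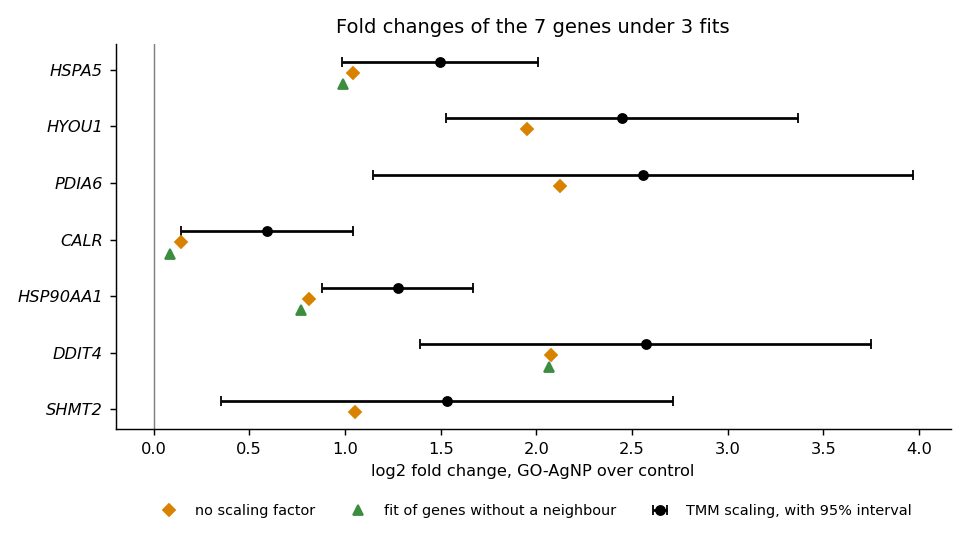
Log2 fold change of GO-AgNP over control cells (x axis) for the 7 genes (rows), with the TMM-scaled value and its 95% interval (circles), the value with no scaling factor (diamonds) and, for the 4 genes with no close neighbour, the value in a fit of such genes alone (triangles). All points lie above 0, and those of CALR come close to it at 0.14 and 0.09.

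Neighbouring genes matter here because no source used names the counter or its strand setting. The libraries are stranded, but whether reads of genes that overlap on opposite strands were counted apart is therefore unknown, and a count may not be the level of the gene's mRNA. By RefSeq's annotation of the goat assembly ARS1.2, HSPA5, CALR, HSP90AA1 and DDIT4 have no other gene overlapping them or within 1 kb. HYOU1 lies within 1 kb of VPS11, which had 0, 0 and 0 reads in treated and 3, 10 and 5 in control libraries, too few for the test. PDIA6 overlaps ATP6V1C2, with 2, 4 and 5 reads in treated and 5, 6 and 3 in control libraries, and an lncRNA. SHMT2 overlaps NDUFA4L2, which was not analysed here. In a fit restricted to 567 tested genes without a neighbour, added after the data were seen, HSPA5 (log2 0.99, adjusted p = 0.00283), HSP90AA1 (log2 0.77, adjusted p = 0.00325) and DDIT4 (log2 2.07, adjusted p = 0.00643) still passed, and CALR did not (log2 0.09, adjusted p = 0.759). The counts of these genes were the same as in the fit of all genes. Only the genes tested, library totals, scaling and variance were set anew, so their lower log2 fold changes are no measure of neighbour reads. HSP90AA1 also shares stretches of near-identical sequence with HSP90AB1, and how reads matching both were counted is not stated.

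Closely related chaperones that work beside the 7 did not all move with them. HSP90B1 (GRP94), the Hsp90 of the ER, had 27, 34 and 38 reads in treated and 55, 57 and 36 in control libraries, which gave log2 0.20 ± 0.28 SE and no call (95% interval -0.38 to 0.78, adjusted p = 0.577). The ratio of HSPA5 to HSP90B1 reads, which no scaling can change, was 2.48, 1.76 and 1.66 in treated and 0.582, 0.737 and 1.11 in control libraries. These ratios did not overlap (exact permutation test, two-sided, p = 0.1, which is the smallest p that 3 against 3 libraries can reach). HSP90AB1, the constitutive cytosolic Hsp90, had 126, 86 and 104 reads in treated and 188, 233 and 164 in control libraries. Its log2 fold change was -0.12 ± 0.17 SE (95% interval -0.48 to 0.24, adjusted p = 0.598), and with no scaling factor it was -0.59 and passed as lower (adjusted p = 0.0353). HSP90AA1 had 0.992, 1.34 and 0.981 reads per HSP90AB1 read in treated libraries and 0.436, 0.386 and 0.421 in the controls, without overlap (exact permutation test p = 0.1). HSP90B1 and HSP90AB1 each have a RefSeq gene within 1 kb.

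CALR did not separate from calnexin (CANX), the membrane lectin of the same folding cycle. There were 5.14, 3.17 and 2.67 CALR reads per CANX read in treated and 5.07, 3.75 and 3 in control libraries (exact permutation test p = 0.8). CANX itself had a log2 fold change of 0.71 ± 0.42 SE (95% interval -0.16 to 1.59, adjusted p = 0.162). PDIA6 per read of P4HB, the major disulfide isomerase, was 0.2, 0.577 and 0.429 in treated and 0, 0.146 and 0.0862 in control libraries (exact permutation test p = 0.1). DDIT4 per read of SESN1, another stress-induced inhibitor of mTORC1 signalling, was 4.6, 3 and 3 in treated and 0.217, 0.0870 and 0.154 in control libraries (exact permutation test p = 0.1). SHMT2 per read of MTHFD1, a cytosolic folate enzyme, overlapped between the groups (exact permutation test p = 0.4). The 7 pairs were chosen after their values were seen, and no ratio passed after adjustment over them, with adjusted p of 0.175 at the lowest.

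**Figure D3:**
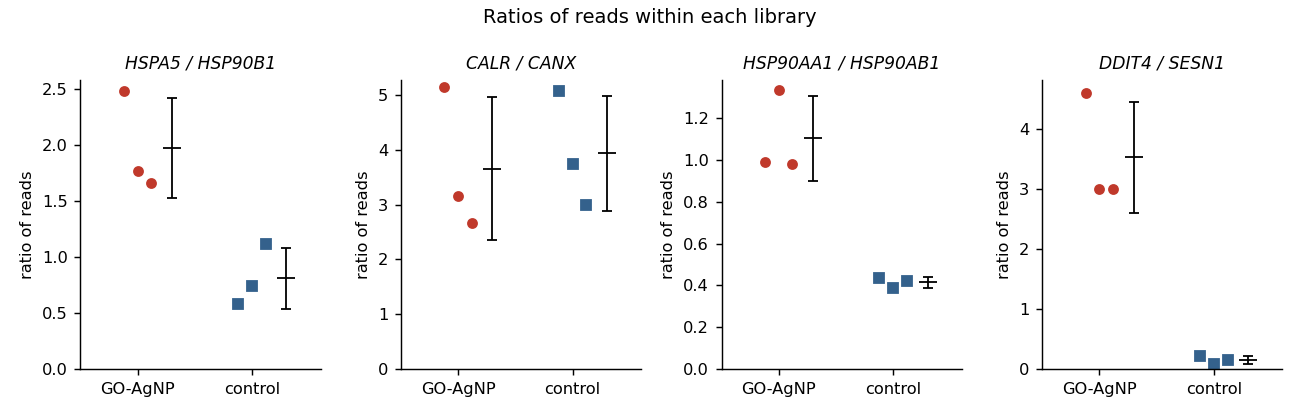
Ratio of reads of 2 genes within each library (y axis, from 0) for HSPA5 to HSP90B1, CALR to CANX, HSP90AA1 to HSP90AB1 and DDIT4 to SESN1, with 3 GO-AgNP (circles) and 3 control libraries (squares) and the mean and SD of each group. Treated and control points are apart for all pairs shown except CALR to CANX.

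Genes of the wider ER folding machinery were called higher about as often as all tested genes once the 4 described above are set aside. Of 32 listed ER chaperones and folding enzymes 29 had a row and 15 were tested, of which 7 rose, 1 fell and 7 missed the threshold, and the median log2 fold change was 0.72. Among the 15 are HSPA5, HYOU1, PDIA6 and CALR, and of the other 11 genes 3 rose, 1 fell and 7 did not pass (median 0.71), beside 24.9% higher and 26.7% lower over all tested genes. GANAB, the catalytic subunit of glucosidase II that trims glycans for the calnexin cycle, had 39, 14 and 23 reads in treated and 5, 5 and 4 in control libraries (log2 3.16 ± 0.51 SE, adjusted p = 2.67e-05). TXNDC5, a disulfide isomerase, had 38, 41 and 59 reads in treated and 15, 15 and 18 in control libraries (log2 2.26 ± 0.33 SE, adjusted p = 1.03e-05). SERPINH1 (HSP47), the collagen-specific chaperone, rose by log2 1.46 ± 0.28 SE (adjusted p = 0.000157). ERP44, which retains proteins in the early secretory pathway, fell to 5, 6 and 1 reads in treated libraries, against 26, 32 and 15 in the controls (log2 -1.78 ± 0.58 SE, adjusted p = 0.0131). SERPINH1 and ERP44 were named after their values were seen. Without treated replicate 3, 9 genes of the list rose and none fell, beside 605 and 581 of all 2556 genes tested then. In the fit of genes without a neighbour 2 rose, beside 135 of all 567. GANAB, TXNDC5 and ERP44 each have a RefSeq gene within 1 kb and SERPINH1 has none.

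The deposited table itself assigns 117 genes to the KEGG pathway of protein processing in the ER, 5 of the 7 genes among them. Of these, 35 were tested, and 14 rose, 3 fell and 18 missed the threshold, and their median log2 fold change was 0.77. Without the 5 described genes, which were chosen with results known, 9 of 30 rose, 3 fell and 18 did not pass (median 0.73). Over all tested genes 24.9% rose and 26.7% fell, with a median of -0.02. Those that fell were DDOST, a subunit of the enzyme that attaches glycans, STUB1, a ubiquitin ligase that works with Hsp70 and Hsp90, and EIF2AK4 (GCN2), the kinase that senses amino acid shortage. Each has a RefSeq neighbour within 1 kb. EIF2AK4 had 87, 71 and 137 reads in treated and 500, 697 and 439 in control libraries (log2 -1.70 ± 0.19 SE, adjusted p = 3.62e-07). Its mean in control libraries, 2108 scaled CPM, stood far above the 150 of HSPA5. Whether these reads came from EIF2AK4 mRNA was not tested. With no scaling factor 9 genes of the pathway rose and 5 fell, beside 326 and 769 of all 2148 tested genes. With no filter on low counts 13 of 117 rose and 9 fell, beside 941 and 1165 of all 11374. In the fit of genes without a neighbour 3 rose and 1 fell, beside 135 and 144 of all 567. This pathway was looked at after the files had been seen.

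Sensors and transcription factors of the unfolded protein response were mostly too sparse to test. Of 22 listed, 17 had a row and 4 were tested. CREB3L1, an ER-bound factor known for its part in collagen secretion (log2 1.41 ± 0.42 SE, adjusted p = 0.00797), and ATF5 (log2 1.44 ± 0.53 SE, adjusted p = 0.0268) rose, but with no scaling factor neither passed. ATF5 overlaps NUP62. The CREB3L1 call was also lost without treated replicate 1 or control replicate 1 and in the fit of genes without a neighbour (log2 0.90, adjusted p = 0.0800), and that of ATF5 with no filter (adjusted p = 0.0985) or when either of treated replicates 1 and 2 or of control replicates 2 and 3 was left out. EIF2S1, the translation factor that PERK phosphorylates, and PPP1R15B had log2 fold changes of -0.20 and -0.17 that did not pass.

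Of the 13 untested regulators, the ratio of treated to control reads had a 95% exact counting interval above 1 for 4 (CEBPB, CREB3, TRIB3 and CHAC1), below 1 for 2 (ATF6B and EIF2AK3) and across 1 for 7. How often such intervals leave out 1 over all untested genes was not counted. Without treated replicate 3 the CREB3 interval crossed 1 (0.898 to 5.36), and CREB3 overlaps GBA2. The examples that follow were named after their values were seen. TRIB3, a target of ATF4, had 13, 2 and 3 reads in treated and 0, 2 and 0 in control libraries, a ratio of 15.4 (3.68 to 137). Without treated replicate 1, which holds 13 of its 18 treated reads, the ratio was 6.49 (1.06 to 68.2). CHAC1, another such target, had 5, 0 and 2 reads in treated and 0, 0 and 0 in control libraries. With the controls set at 3 reads over the group it was 3.98-fold higher, and the lower end of its counting interval was 2.46. Without treated replicate 1 only 2 reads are left, and the lower end was 0.488. ATF6B, a relative of the sensor ATF6, had 0, 0 and 0 reads in treated and 7, 7 and 0 in control libraries. With the treated group set at 3 reads it was 2.73-fold lower, and the upper end of the interval of its ratio was 0.515. It overlaps a RefSeq gene without a symbol. DDIT3 (CHOP), the factor tied to ER stress and cell death, had 8, 3 and 4 reads in treated and 0, 10 and 2 in control libraries, a ratio of 2.13 with a counting interval of 0.933 to 4.99, and it overlaps MARS. Without control replicate 2, which holds 10 of its 12 control reads, the ratio was 7.85 (1.83 to 70.8). ATF4 had 2, 4 and 0 reads in treated and 8, 10 and 2 in control libraries, a ratio of 0.512 (0.168 to 1.32). For ATF4, and for DDIT3 with all libraries, a difference was not detectable at this depth. The ATF4 ratio was 0.247 (0.028 to 1.02) without treated replicate 2 and 0.785 (0.258 to 2.03) without treated replicate 3. EIF2AK3 (PERK) had 0, 1 and 0 reads in treated and 6, 4 and 64 in control libraries, so that 64 of its 74 control reads came from control replicate 3. These intervals hold counting error alone, and PCR copies of a molecule are not independent. Libraries of the same group differed by more than counting error, with a chi-square per degree of freedom of 3.27 to 12.7 over tested genes. The intervals are therefore too narrow.

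Of the machinery that moves proteins into the ER or out of it for degradation, 8 of 27 genes with a row were tested, and 3 rose, none fell and 5 did not pass, against 24.9% higher and 26.7% lower over all tested genes. With no filter 2 of the 27 rose and 1 fell, beside 941 and 1165 of all 11374 genes. In the fit of genes without a neighbour 1 rose. Those that rose were OS9, a lectin that picks glycoproteins for degradation (log2 1.71 ± 0.38 SE, adjusted p = 0.00079), SEC62, a translocation factor (log2 1.66 ± 0.42 SE, adjusted p = 0.00209), and the segregase VCP (log2 1.35 ± 0.39 SE, adjusted p = 0.00568). VCP did not pass with no scaling factor or no filter. By RefSeq VCP overlaps FANCG, OS9 has a gene within 1 kb and SEC62 has no neighbour. SEC61A1, the channel itself, had 15, 12 and 18 reads in treated and 19, 27 and 29 in control libraries (log2 0.01 ± 0.40 SE, 95% interval -0.82 to 0.85).

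Heat shock proteins outside the ER were called in both directions, beside 24.9% higher and 26.7% lower over all tested genes. Of 25 listed genes with a row 7 were tested, and 2 rose, 2 fell and 3 missed the threshold (median log2 fold change -0.12). Without HSP90AA1, which was chosen with its result known, 1 of the other 6 rose, 2 fell and 3 did not pass (median -0.66). The genes that rose were HSP90AA1 itself and CDC37, the cochaperone that brings kinases to Hsp90, which had 38, 42 and 29 reads in treated and 16, 11 and 7 in control libraries (log2 2.45 ± 0.40 SE, adjusted p = 2.84e-05). STUB1 fell (log2 -1.20 ± 0.22 SE, adjusted p = 9.15e-05). HSF2, a heat shock transcription factor, fell to 478, 434 and 606 reads in treated libraries, against 2325, 2797 and 1991 in the controls (log2 -1.46 ± 0.15 SE, adjusted p = 1e-07). Its mean in control libraries, 9227 scaled CPM, stood far above the 314 of HSP90AA1. Whether these reads came from HSF2 mRNA was not tested. HSF2 has a RefSeq gene without a symbol within 1 kb, and STUB1 overlaps JMJD8. With no filter 4 of the 25 heat shock genes rose, beside 941 of all 11374 genes, and without the most counted gene 4 rose as well. Without control replicate 1 it was 4, without control replicate 2 it was 5 and without treated replicate 1 it was 4. With no scaling factor 4 fell, beside 769 of all 2148 tested genes. In the fit of genes without a neighbour 3 rose and none fell.

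**Figure D4:**
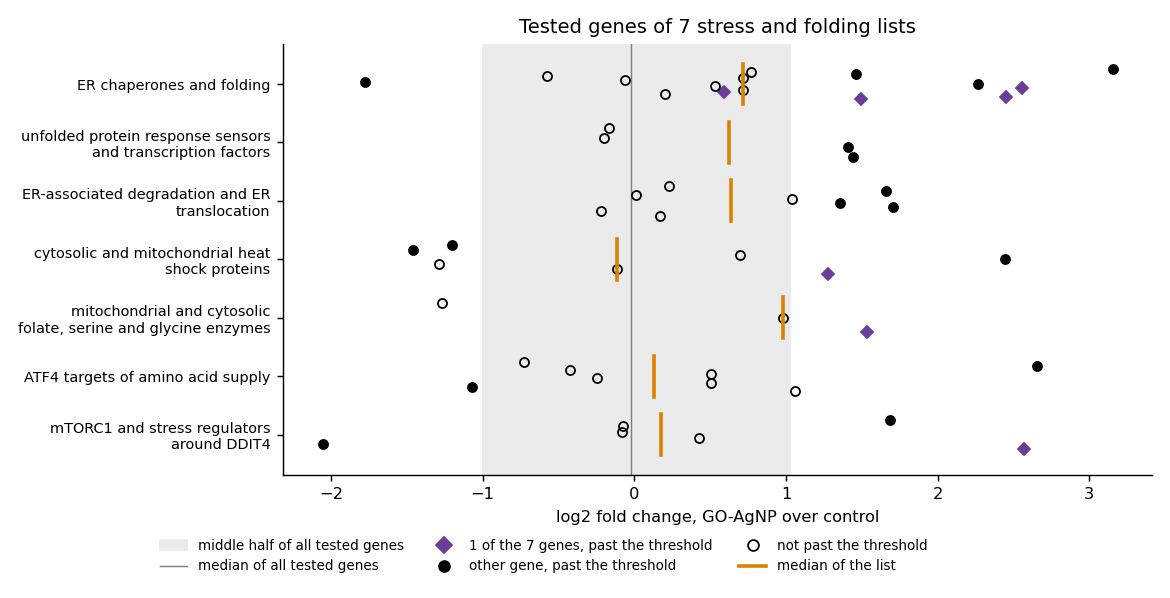
Log2 fold change of GO-AgNP over control cells (x axis) for each tested gene of 7 lists (rows), filled where it passed an adjusted p of 0.05, with the genes described here as diamonds and the list median as an orange bar. The grey band runs between the quartiles of all tested genes, -1 to 1.03, and the thin line their median of -0.02.

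Around DDIT4, 6 of 19 genes of the mTORC1 and stress list with a row were tested. VEGFA, the angiogenic factor induced by hypoxia and by ATF4, rose together with DDIT4, with 85, 86 and 62 reads in treated and 44, 35 and 43 in control libraries (log2 1.69 ± 0.25 SE, adjusted p = 1.18e-05). SESN1 fell to 5, 4 and 4 reads in treated libraries, against 23, 46 and 26 in the controls (log2 -2.06 ± 0.49 SE, adjusted p = 0.00144), and has a RefSeq gene within 1 kb. Without control replicate 2 or treated replicate 3 the list had 2 genes that fell. TSC2 (log2 0.43), through which DDIT4 acts, MTOR (log2 -0.08) and HIF1A (log2 -0.07) did not pass.

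Enzymes around SHMT2 were mostly too sparse to test. Of 16 folate, serine and glycine enzymes with a row 3 were tested, and SHMT2 rose while MTHFD1 (log2 0.98 ± 0.47 SE, adjusted p = 0.086) and GLDC (log2 -1.27 ± 0.53 SE, adjusted p = 0.0505) did not pass. MTHFD1, which overlaps ZBTB25, passed without treated replicate 3 (adjusted p = 0.0232). In this list 1 gene fell with no scaling factor, without control replicate 2, without the most counted gene and in the fit of genes without a neighbour. With no filter 2 of the 16 fell, beside 1165 of all 11374 genes. Of the targets of ATF4 that supply amino acids, 8 of 25 with a row were tested, and 1 rose, 1 fell and 6 did not pass, beside 24.9% higher and 26.7% lower over all tested genes. TARS1, which charges threonine tRNA, had 16, 17 and 9 reads in treated and 7, 2 and 2 in control libraries (log2 2.66 ± 0.64 SE, adjusted p = 0.00149). GARS1, which charges glycine tRNA, fell to 18, 13 and 23 reads in treated libraries, against 54, 73 and 65 in the controls (log2 -1.07 ± 0.31 SE, adjusted p = 0.00595), a call lost without treated replicate 2 (adjusted p = 0.0515). Without any 1 of the 3 control libraries or treated replicate 3, 2 genes of this list rose, and without control replicate 1 or treated replicate 3, 2 fell. With no scaling factor 1 rose and 3 fell, beside 326 and 769 of all 2148 tested genes. With no filter 2 of the 25 rose and 3 fell, beside 941 and 1165 of all 11374.

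The profiles of the 7 genes over the 6 libraries were compared by the root mean square difference of their centred log2 scaled CPM, in which 0 means the same profile. Among the 7, HYOU1 and DDIT4 (0.20) and HSPA5 and HSP90AA1 (0.21) were closest, and CALR and PDIA6 (1.73) were farthest apart. These distances include the shift between the groups, so genes with like fold changes lie close. Counting error was not taken out of them, and HYOU1 had only 12, 6 and 9 and DDIT4 5, 4 and 4 control reads. PDIA6 has no read in control replicate 1, and without that library its distance from CALR was 0.72, while HYOU1 and CALR (1.07) were then farthest apart. Over all tested genes with a symbol, those most like HSPA5 were THBS2 (thrombospondin 2, 0.12), PRRC2C (0.12) and HSPG2 (the basement membrane proteoglycan perlecan, 0.15). The nearest gene was NSUN2 for HYOU1 (0.20), IFI35 for PDIA6 (0.32), AEBP1 for CALR (0.11), IQGAP1 for HSP90AA1 (0.10), HYOU1 for DDIT4 (0.20) and CFD for SHMT2 (0.19). THBS2 had 317, 331 and 297 reads in treated and 192, 235 and 209 in control libraries.

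Circular RNAs of these genes were nearly absent. HSP90AA1 was the only host of the 7, with a sense overlapping circRNA on chromosome 21 (66200172 to 66203350, minus strand, predicted length 3179 nt) and an antisense one (66201174 to 66201341, plus strand, 168 nt), given as deposited with no build stated. The first had 4 and the second 1 back-splice junction read, all in control replicate 2, and neither passed the filter for testing. No junction read of the 7 genes was found among 4287 in treated libraries, which allows a share of up to 0.07% of treated junction reads, above the 0.0288% seen over the controls. With reads in a single library, a permutation test of this share says nothing about the groups.

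**Figure D5:**
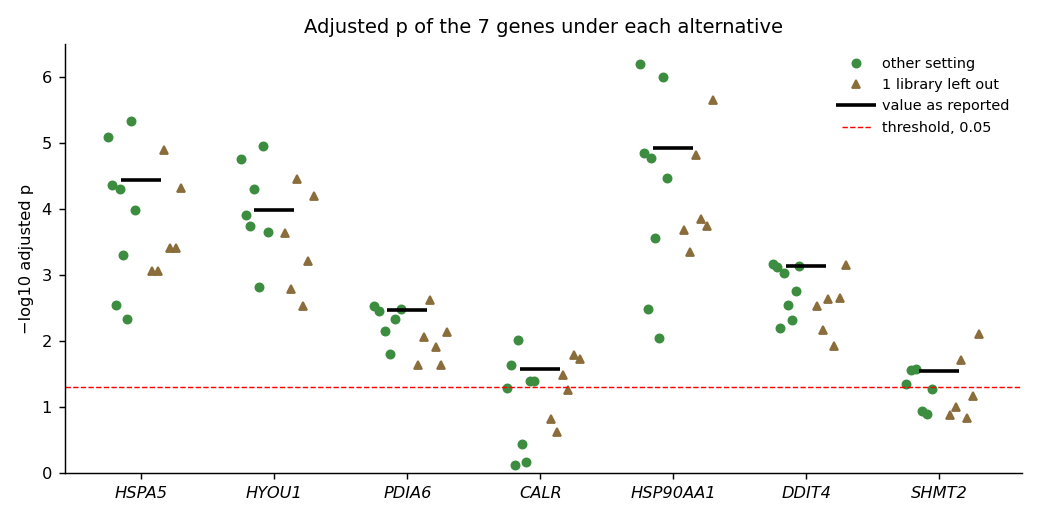
Adjusted p on a −log10 scale (y axis) for each of the 7 genes under the settings other than the reported one (circles) and with 1 library left out (triangles), with the reported value as a black bar and the threshold of 0.05 as a dashed line. HSPA5, HYOU1, PDIA6, HSP90AA1 and DDIT4 stay above the line under every alternative that tested them, and CALR and SHMT2 cross it.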

How the data were processed

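Ribosomal RNA-depleted total RNA was made into stranded libraries, per the labels' protocols. The deposited gene and circRNA tables hold raw counts per library, per the file headers. Per the submitters' processing notes, CASAVA 1.8, BWA and the build hg19 were used, in roles not given. The counter, its strand setting and the goat annotation are unknown. The 12 per-library columns normalized by the authors and the lncRNA table were not used, and columns were matched by their headings. Genes were compared by edgeR 4.0.16 under R 4.3.3 (TMM factors, filterByExpr with a minimum count of 10, quasi-likelihood test, Benjamini-Hochberg over 2148 genes, threshold 0.05), a procedure tested on simulated data. There it recovered 29.1% of 2-fold and 79.6% of 4-fold changes, so a gene that did not pass may still differ. Fewer genes were changed in the simulation than were called here. The SE of a log2 fold change was taken from that change and the root of its F statistic. The RefSeq table placed 8439 genes and served only to find neighbours. Profiles were compared after adding 0.5 reads. The circRNA table was fitted likewise (22 tested). Exact two-sided permutation tests used all 20 assignments.

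The 7 genes and all lists were chosen with earlier results of these data known. Named genes were the 7, up to 4 passing genes per list by size of change or, with none, the 2 most counted, and the nearest profiles. Other genes in the text, the gene pairs and the KEGG pathway were chosen after their values were seen. Alternatives were other scalings, filters, the DESeq2 1.42.0 Wald test, the replicate number as a block, no most counted gene, and each library left out. Promoter and protein sequences were not analysed here. Python 3.11.15 and scipy 1.17.1 were used.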

Additional observations from a re-analysis of the deposited data

How the results depend on the processing

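Of 93 refits of the 7 genes under alternatives, none changed direction and 14 lost a call, all of CALR or SHMT2, each lost under 7. HSPA5 stayed between log2 0.99 and 1.66, HSP90AA1 between 0.77 and 1.51, HYOU1 between 1.95 and 2.77, PDIA6 between 1.91 and 2.89 and DDIT4 between 2.07 and 2.90. CALR ranged from 0.09 to 0.77 and also missed the threshold under DESeq2's Wald test, at an adjusted p of 0.0511, and with no filter (0.363). With no scaling factor the median of all genes shifted by -0.45. Then 326 genes were called higher in place of 534, and 769 lower in place of 574. With no filter 941 of 11374 genes rose and 1165 fell, as more genes were tested. In the fit of genes without a neighbour 135 rose and 144 fell, and 3 of the 4 genes described here that it holds rose. With each library left out, 5 to 7 of the 7 rose. Without the most counted gene in the total, the difference in the share of reads was 0.178 percentage points in place of 0.0786. For circRNAs, 24 rose and 11 fell with no filter in place of 10 and 5.

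Same-numbered libraries did not deviate together (correlations of -0.02, -0.01 and -0.03), which is no sign of pairing. Counting noise at this depth lowers such correlations, so they cannot tell whether the numbers mark shared cultures. With the replicate number as a block 497 genes rose and 544 fell, and 6 of the 7 passed, SHMT2 missing the threshold (adjusted p = 0.0535), and no library correlated best with its own number. The planned change of a motif's gap was not run, as no promoter sequence was used.

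Depth limits all of this: 4 of the 7 genes had fewer than 50 reads in a control group, and counts this low leave wide intervals.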
